A study of Mus musculus with 4 samples.

Results

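Cholesterol synthesis and sterol handling were followed through 31 genes in single cells of mouse bone marrow. The list holds 18 enzymes of cholesterol synthesis, 5 genes that control the SREBP transcription factors, 4 genes of sterol transport, esterification and lysosomal release, and 4 genes of export and of the liver X receptors (LXR). The genes were picked by symbol out of the 32544 genes of the count tables, and each symbol matched a single gene. The marrow came from YAP1 heterozygote mice and from wild type (WT) mice, with 2 libraries each, all from animals aged 10 weeks. Per the labels, nucleated marrow cells were sorted by flow cytometry and loaded on a 10x Genomics Chromium controller, which tags the 3′ end of each transcript with a unique molecular identifier (UMI). The strain, the sort gates, the kind of Yap1 allele and whether the replicates came from separate animals are not given in the sources used here, so p-values measure the spread between libraries, which may be technical.

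Cells build cholesterol from acetyl-CoA through mevalonate, isoprenoid units, squalene and lanosterol. When sterol in the membrane of the endoplasmic reticulum is scarce, the escort protein SCAP carries SREBP to the Golgi for cleavage and the enzymes are transcribed; when sterol is plentiful, INSIG proteins hold the complex back. Oxidised sterols in turn activate LXR, which raises the export pumps ABCA1 and ABCG1, and in mice these pumps are known to restrain the expansion of blood stem and progenitor cells.

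Promoter sequence was read from RefSeq (GRCm38.p6) for the 25 of the 31 genes it lists. In the 250 bases before the transcription start, a CCAAT box (CCAAT on either strand) lay in 14 of 15 synthesis genes, against 37.5% of 27025 genes with a promoter entry. None of the 3 export and LXR genes with an entry held one. A GC box (GGGCGG on either strand) lay in 14 of 15 synthesis genes, against 35.4% of all, and an E-box (CACGTG) in 3 of 15, against 6.86%. The sterol regulatory element was searched only as the exact sequence TCACCCCAC, which was found in Hmgcs1 alone, against 0.555% of all. Other forms of the element were not searched. Matches of different motifs may overlap, and a match describes the sequence and shows no binding. The stretches below are shown for Hmgcs1, which holds the sterol regulatory element, for Lss and Sc5d, 2 enzymes of the same route that differ in opposite directions between progenitors and mature neutrophils, and for the export pump Abca1. Each runs 5′ to 3′ on the gene's strand before the start, outside annotated exons, with the sterol regulatory element, CCAAT boxes (ATTGG where the box is on the other strand) and E-boxes in capitals. Hmgcs1 lies at chr13:119690201-119690350 (plus strand), Lss at chr10:76531455-76531587 (plus), Sc5d at chr9:42264301-42264450 (minus) and Abca1 at chr4:53159896-53160045 (minus).
Hmgcs1: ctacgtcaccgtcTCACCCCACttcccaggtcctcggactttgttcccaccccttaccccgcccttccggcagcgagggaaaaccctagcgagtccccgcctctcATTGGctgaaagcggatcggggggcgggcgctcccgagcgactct
Lss: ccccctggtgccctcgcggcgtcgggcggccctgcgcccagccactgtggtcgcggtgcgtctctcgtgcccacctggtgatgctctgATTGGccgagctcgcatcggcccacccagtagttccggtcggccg
Sc5d: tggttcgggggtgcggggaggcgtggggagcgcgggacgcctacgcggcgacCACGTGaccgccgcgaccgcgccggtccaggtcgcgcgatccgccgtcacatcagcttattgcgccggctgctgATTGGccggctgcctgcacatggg
Abca1: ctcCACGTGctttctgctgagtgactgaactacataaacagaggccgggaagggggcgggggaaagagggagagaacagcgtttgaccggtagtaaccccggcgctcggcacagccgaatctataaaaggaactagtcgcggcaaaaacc

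The 4 libraries held between 112806900 and 119855112 UMIs, and 10565 and 13231 cells were kept in the YAP1 heterozygote libraries (replicates 1 and 2) and 12418 and 11367 in the WT libraries. Any pair of libraries shared 27 to 62 barcodes. Cells were clustered without the 31 genes and named from marker genes as "-like" classes, of which 17 had at least 20 cells in every library. Yap1 itself gave 0 and 6 UMIs in the YAP1 heterozygote libraries and 6 and 7 UMIs in the WT libraries, too few to check the genotype, and a 3′ count does not separate alleles. WT replicate 1 stood apart in its mature neutrophils: it held 1128 of the cells of the cluster led by Cxcl2, Il1b and Acod1, against 31 and 40 in the YAP1 heterozygote libraries and 121 in WT replicate 2, and 489 of the cells of a second Cxcl2 cluster, against 5, 3 and 22.

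The balance of synthesis over export differed widely between cell classes. The summed level of the 18 synthesis genes, in CPM (UMIs scaled to the same total in each class and library), was set over that of the pumps Abca1 and Abcg1, so that the ratio does not depend on how classes are scaled. Erythroid progenitor-like cells (led by Car1, Car2, Blvrb and Ermap) had ratios of 211 and 165 in the YAP1 heterozygote libraries and 87.6 and 197 in the WT libraries, above every library of the other 16 classes. Their pumps rested on few molecules, 14 and 21 UMIs in the YAP1 heterozygote libraries and 12 and 21 in the WT libraries, which limits the precision of this ratio. Granulocyte-monocyte progenitor (GMP)-like cells followed with a mean of 49.3 ± 7.78 (SD, n = 4 libraries). Neutrophil precursor-like cells averaged 19.1 ± 3.6, megakaryocyte-like cells 15.7 ± 2.99 and plasmacytoid dendritic cell-like cells 14.3 ± 2.04, and neighbours in this order overlapped. Abundant genes weigh most in the synthesis sum. In GMP-like cells, Fdps alone averaged 121 CPM of a mean sum of 352 CPM.

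In the middle of the order, stem and progenitor (HSPC)-like cells averaged a ratio of 5.9 ± 0.661 and mature neutrophil-like cells 5.19 ± 1.14, and their libraries overlapped. At the low end, B cell-like cells averaged 1.35 ± 0.078, nonclassical monocyte-like cells 1.16 ± 0.186 and macrophage-like cells 0.66 ± 0.0944. In macrophage-like cells the pumps thus exceeded all 18 synthesis genes in every library. That class also carried neutrophil RNA of 138900 to 210200 CPM, whose part in its levels was not tested.

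**Figure D1:**
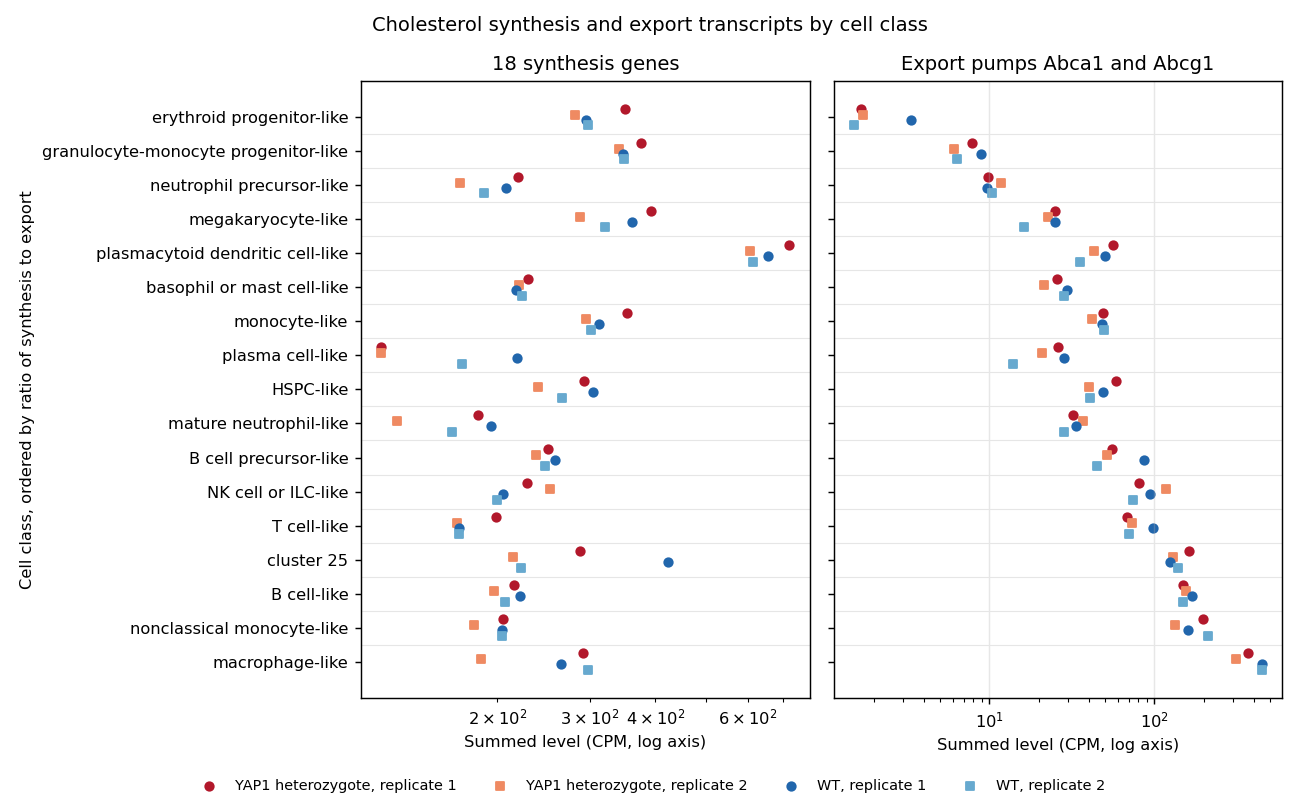
Summed level of the 18 synthesis genes (left) and of Abca1 and Abcg1 (right) in CPM on log axes, 1 point per library, for 17 cell classes ordered by the median ratio of the sums. The export sum spans from about 2 CPM in erythroid progenitor-like cells to 394 CPM in macrophage-like cells, and the synthesis sum is highest in plasmacytoid dendritic cell-like cells (648 CPM on average).

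The high ratio of erythroid progenitor-like cells came with near absence of Abca1 and Abcg1 rather than with the highest synthesis sum. Abca1 stood at 0.119 and 0.729 CPM in the YAP1 heterozygote libraries and 1.12 and 0.575 CPM in the WT libraries. Abcg1 stood at 1.54 and 0.972 CPM in the YAP1 heterozygote libraries and 2.24 and 0.934 CPM in the WT libraries. Abcg4, a relative of Abcg1 that is outside the 31 genes and was singled out after its values were seen, had 33.3 and 33.1 CPM there in the YAP1 heterozygote libraries and 38.4 and 34.8 CPM in the WT libraries. In each of the other 16 classes it had at most 8 UMIs in any library. Abcg4 is not part of the ratio, although its level in erythroid progenitor-like cells lay above those of Abca1 and Abcg1. The rank of erythroid progenitor-like cells thus holds for Abca1 and Abcg1 alone, and a ratio that includes Abcg4 was not computed. Synthesis sums in these cells were 350 and 281 CPM in the YAP1 heterozygote libraries and 294 and 297 CPM in the WT libraries. GMP-like cells had 375 and 340 CPM in the YAP1 heterozygote libraries and 346 and 348 CPM in the WT libraries, and plasmacytoid dendritic cell-like cells had 720 and 606 CPM against 654 and 613 CPM.

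On the CPM scale, the scale used for all ranks over the 17 classes, most single enzymes peaked in the plasmacytoid dendritic cell-like class. It held the highest mean of Hmgcs1, Mvk, Pmvk, Idi1, Fdft1, Sqle, Cyp51, Msmo1, Nsdhl, Sc5d and Dhcr7, and also of the control genes Srebf2, Insig1 and Scap and of the lysosomal sterol transporter Npc1. For Pmvk, Idi1, Fdft1, Nsdhl, Dhcr7, Srebf2, Scap and Npc1 all 4 libraries lay above those of the next class. Scap, the SREBP escort, had 85.8 and 83.2 CPM there in the YAP1 heterozygote libraries and 72.9 and 66.8 CPM in the WT libraries, against a mean of 36.8 CPM in the next class, B cell precursor-like cells. Npc1 had 218 and 163 CPM in the YAP1 heterozygote libraries and 153 and 175 CPM in the WT libraries, against a mean of 57.4 CPM in macrophage-like cells.

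Other members had their own sites. Fdps, which makes farnesyl diphosphate, was highest in GMP-like cells (121 ± 6.79 CPM, n = 4 libraries), with plasmacytoid dendritic cell-like cells next and overlapping. Stard4, a cytosolic sterol carrier, was highest in megakaryocyte-like cells, at 96.7 and 70.8 CPM in the YAP1 heterozygote libraries and 103 and 87.8 CPM in the WT libraries, against a mean of 30.4 CPM in HSPC-like cells. Soat1, which esterifies cholesterol for storage, and Npc2, the soluble lysosomal sterol carrier, were highest in monocyte-like cells, with means of 201 and 1171 CPM. Ebp and Mvd also peaked there, at 104 and 21.2 CPM on average.

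The export and LXR genes each had their highest mean in macrophage-like or nonclassical monocyte-like cells. Abca1 had 247 and 226 CPM in macrophage-like cells of the YAP1 heterozygote libraries and 326 and 297 CPM in those of the WT libraries, with B cell-like cells next at 87.7 ± 5.86 CPM (n = 4 libraries). Nr1h3, which encodes LXR alpha, averaged 98 ± 28.8 CPM in macrophage-like cells and 40.5 ± 15.2 CPM in cluster 25, a cluster led by H2-Eb1, C1qb and Cd209a that was left unnamed. Counts were low in macrophage-like cells too. There both LXR genes together rested on 40 and 91 UMIs in the YAP1 heterozygote libraries and 28 and 21 in the WT libraries. In the erythroid, megakaryocyte, HSPC, GMP and neutrophil classes Nr1h3 rested on 0 to 22 UMIs a library. Nr1h2, which encodes LXR beta, was found throughout, with class means between 15.8 CPM in plasma cell-like and 65.5 CPM in nonclassical monocyte-like cells. Abcg1 was highest in nonclassical monocyte-like cells (151 ± 32.6 CPM), overlapping with cluster 25.

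**Figure D2:**
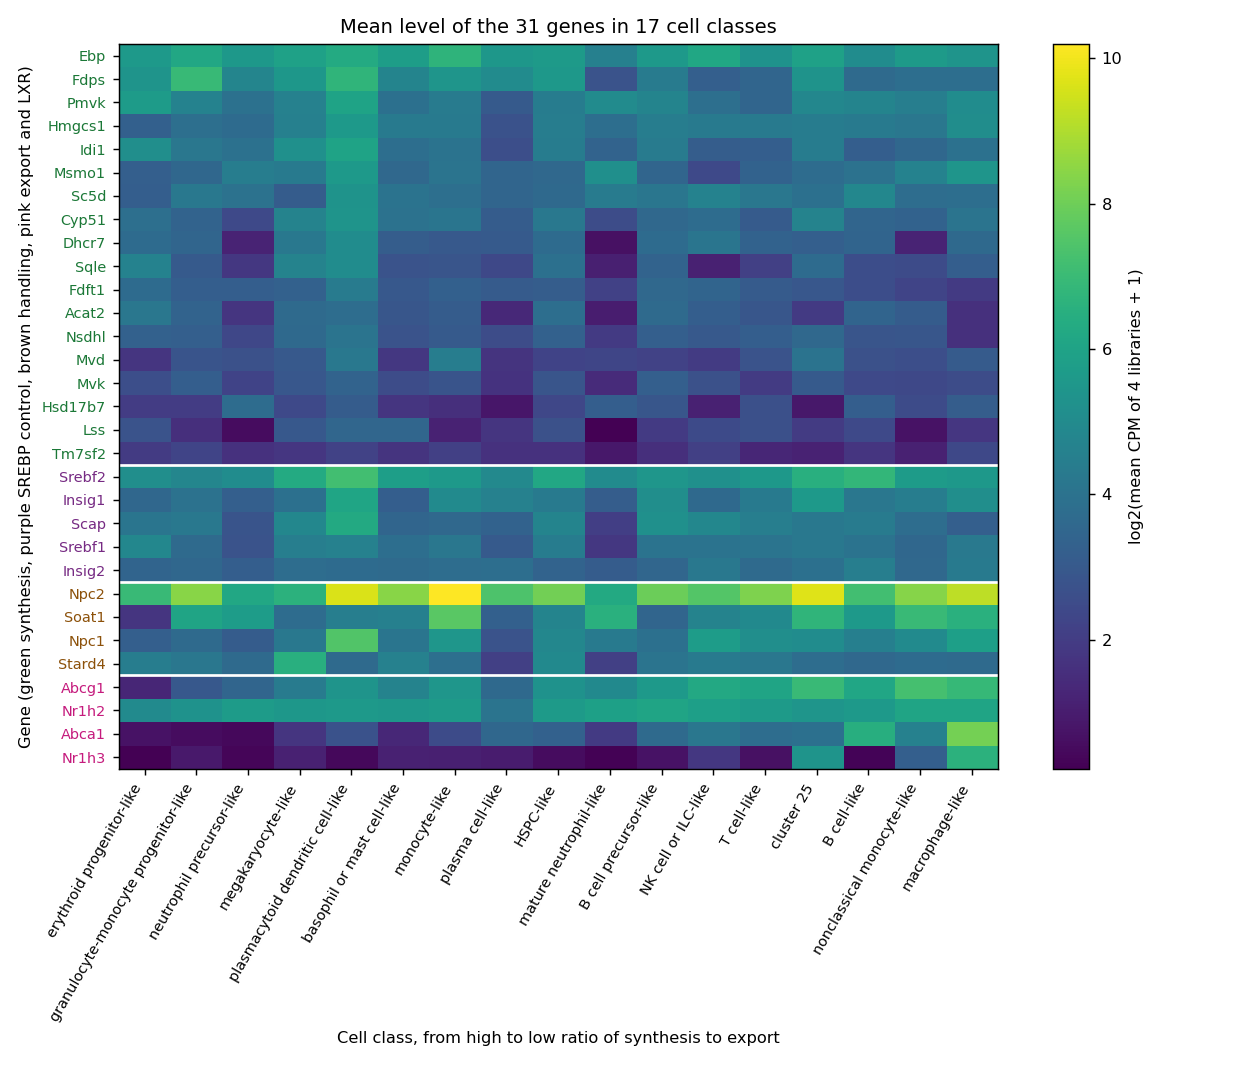
Mean level of each of the 31 genes (rows, grouped by role) in 17 cell classes (columns, from high to low ratio of synthesis to export), as log2 of the mean CPM of 4 libraries plus 1. Plasmacytoid dendritic cell-like cells are bright over most synthesis rows, Stard4 is brightest in megakaryocyte-like cells, and Abca1 and Nr1h3 are brightest in macrophage-like cells.

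Mature neutrophil-like cells served as the common reference for 4 classes in 1 fit over libraries. On the CPM scale they had the lowest mean of 17 classes for the enzymes Acat2, Mvk, Fdps, Sqle, Lss, Tm7sf2, Ebp and Dhcr7, for Srebf1, Insig1, Insig2 and Scap, and for Stard4. For Msmo1, Pmvk, Sc5d and Hsd17b7 they ranked 3, 4, 4 and 2 of 17. These ranks do not all hold on another scale: with edgeR's TMM factors, which correct for a few abundant genes, the log2 fold change against mature neutrophil-like cells was below 0 for Insig1 and Insig2 in all 4 classes and for Ebp in 3 of the 4. Scale matters in this contrast, because 10 genes took 43.6% to 44.8% of the UMIs of mature neutrophil-like cells and 47.7% to 49.6% of those of neutrophil precursor-like cells, but 7.2% to 8.3% of those of HSPC-, erythroid progenitor- and megakaryocyte-like cells. With TMM factors the median gene shifted by 0.44, 0.13, 0.38 and 0.06 on the log2 scale in HSPC-, erythroid progenitor-, megakaryocyte- and neutrophil precursor-like cells against mature neutrophil-like cells, and on the plain CPM scale by 1.93, 1.24, 1.83 and 0.35. Of all genes called, the share called higher was 57%, 52.6%, 56.2% and 54.5% with TMM and 80.4%, 68.5%, 78.2% and 65.6% on the CPM scale. A direction is therefore given only where the call (edgeR's quasi-likelihood test, Benjamini-Hochberg adjusted p under 0.05) and its sign were the same with TMM factors, with RLE factors and on the CPM scale. The log2 fold changes printed are those with TMM factors.

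In erythroid progenitor-like cells 9 of 18 synthesis genes were higher than in mature neutrophil-like cells under all 3 scalings (Acat2, Idi1, Fdps, Fdft1, Sqle, Lss, Tm7sf2, Nsdhl and Dhcr7) and 5 were lower (Hmgcs1, Mvd, Msmo1, Hsd17b7 and Sc5d). Over all 13125 genes tested, 42.4% were higher and 27.5% lower by the same rule, so these shares are near the background. In megakaryocyte-like cells 6 were higher (Acat2, Fdps, Sqle, Lss, Cyp51 and Dhcr7) and 4 lower (Pmvk, Msmo1, Hsd17b7 and Sc5d), against 45.4% and 19.4% of all genes. In HSPC-like cells 5 were higher (Acat2, Fdps, Sqle, Lss and Dhcr7) and the same 4 as in megakaryocyte-like cells lower, against 47.6% and 17.9%. In neutrophil precursor-like cells 7 were higher (Acat2, Mvk, Fdps, Fdft1, Tm7sf2, Ebp and Dhcr7) and 3 lower (Pmvk, Msmo1 and Sc5d), against 32.5% and 24.9%. Every contrast shares its mature neutrophil-like cells with the other 3.

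Lss, the cyclase that forms lanosterol, had the highest log2 fold change of the synthesis genes in erythroid progenitor-, megakaryocyte- and HSPC-like cells. It stood at 6.54 and 5.59 CPM in erythroid progenitor-like cells of the YAP1 heterozygote libraries and 7.29 and 4.1 CPM in those of the WT libraries, against 0.103, 0.155, 0.335 and 0.208 CPM in mature neutrophil-like cells, where it rested on 2 to 7 UMIs a library. No library overlapped, and the log2 fold change was 3.71 ± 0.35 (SE; edgeR adjusted p = 5.79e-10). It was 3.56 ± 0.42 in megakaryocyte-like and 3.23 ± 0.38 in HSPC-like cells. Sqle, the squalene epoxidase of the step before, had 26.7 and 23.1 CPM in erythroid progenitor-like cells of the YAP1 heterozygote libraries and 23.5 and 22.1 CPM in those of the WT libraries, against 0.363 to 1.87 CPM in mature neutrophil-like cells (log2 fold change 3.32 ± 0.22). Dhcr7, which finishes cholesterol in the last step, differed by 3.23 ± 0.16 there, by 3.40 ± 0.19 in megakaryocyte-like and by 2.82 ± 0.18 in HSPC-like cells.

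Msmo1 and Sc5d were the synthesis genes that were lower than in mature neutrophil-like cells in all 4 classes under all 3 scalings. Msmo1, which removes methyl groups from the sterol ring, had 11.3 and 7.37 CPM in erythroid progenitor-like cells of the YAP1 heterozygote libraries and 8.69 and 6.61 CPM in those of the WT libraries. In mature neutrophil-like cells it had 40.6 and 28.2 CPM in the YAP1 heterozygote libraries and 40 and 34.5 CPM in the WT libraries, and no library overlapped. Its log2 fold change was -3.20 ± 0.11 in erythroid progenitor-like, -3.17 ± 0.12 in HSPC-like, -2.35 ± 0.13 in megakaryocyte-like and -1.06 ± 0.09 in neutrophil precursor-like cells (edgeR adjusted p between 2.25e-18 and 8.13e-11). Sc5d, a sterol desaturase, had log2 fold changes of -2.37 ± 0.15, -2.29 ± 0.16, -2.85 ± 0.21 and -0.71 ± 0.12 in the same order. Transcripts of enzymes of the same route thus lay in opposite directions within a single contrast.

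Of the SREBP control genes, Srebf1 and Scap were higher in all 4 classes than in mature neutrophil-like cells under all 3 scalings, so 2 of 5 were higher in each, against 32.5% to 47.6% of all genes by the same rule, which is near the background. Srebf1 had 39.9 and 21.8 CPM in erythroid progenitor-like cells of the YAP1 heterozygote libraries and 24.4 and 25.2 CPM in those of the WT libraries, against 2.02 to 2.95 CPM in mature neutrophil-like cells (log2 fold change 2.33 ± 0.15). Scap had 23.2 and 24.6 CPM in HSPC-like cells of the YAP1 heterozygote libraries and 29.2 and 25.7 CPM in those of the WT libraries, against 2.65 to 3.93 CPM (log2 fold change 1.51 ± 0.14). The directions of Srebf2, Insig1 and Insig2 differed between scalings in all 4.

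Among the handling genes, Stard4 was higher and Soat1 lower than in mature neutrophil-like cells in all 4 classes under all 3 scalings, as were 32.5% to 47.6% (higher) and 17.9% to 27.5% (lower) of all genes in the single contrasts. Stard4 differed by 3.34 ± 0.12 on the log2 scale in megakaryocyte-like cells, 1.73 ± 0.13 in HSPC-like, 1.55 ± 0.12 in neutrophil precursor-like and 1.56 ± 0.13 in erythroid progenitor-like cells. Soat1 had 1.9 and 1.62 CPM in erythroid progenitor-like cells of the YAP1 heterozygote libraries and 3.64 and 2.52 CPM in those of the WT libraries, against 95.6 and 92.8 CPM and 84.4 and 97.7 CPM in mature neutrophil-like cells of the same libraries. Its log2 fold change of -6.54 ± 0.11 was the largest in size of the 30 genes tested in these 4 contrasts, with -4.35 ± 0.11 in megakaryocyte-like and -3.38 ± 0.08 in HSPC-like cells. Npc1 was lower in neutrophil precursor-like cells by 1.59 ± 0.07, at 8.01 and 7.34 CPM in the YAP1 heterozygote libraries and 7.84 and 7.41 CPM in the WT libraries, against 16.7 to 20.3 CPM in mature neutrophil-like cells.

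Export and LXR genes were lower than in mature neutrophil-like cells wherever both call and sign were the same under all 3 scalings. All 3 that were tested (Abca1, Abcg1 and Nr1h2) were lower under all 3 scalings in neutrophil precursor-like as well as erythroid progenitor-like cells, against 24.9% and 27.5% of all genes. Abcg1 and Nr1h2 were lower in megakaryocyte-like cells, and Nr1h2 alone in HSPC-like cells, against 19.4% and 17.9% of all genes. Abca1 in HSPC-like cells had a positive log2 fold change under all 3 scalings but was not called in all 3. Its values were 0.22 with TMM, 0.03 with RLE and 1.72 on the CPM scale. Abcg1 differed by -5.71 ± 0.18 in erythroid progenitor-like and by -2.08 ± 0.15 in megakaryocyte-like cells. Abca1 differed by -3.25 ± 0.31 in neutrophil precursor-like cells, at 0.13 and 0.464 CPM in the YAP1 heterozygote libraries and 0.361 and 0.43 CPM in the WT libraries, against 1.5 to 3.47 CPM in mature neutrophil-like cells. In HSPC-like cells Abcg1 stood at 47.4 and 29.9 CPM in the YAP1 heterozygote libraries and 41.7 and 33.9 CPM in the WT libraries, and its direction against mature neutrophil-like cells (25.6 to 33.5 CPM) reversed between TMM (-1.14) and the CPM scale (0.36).

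**Figure D3:**
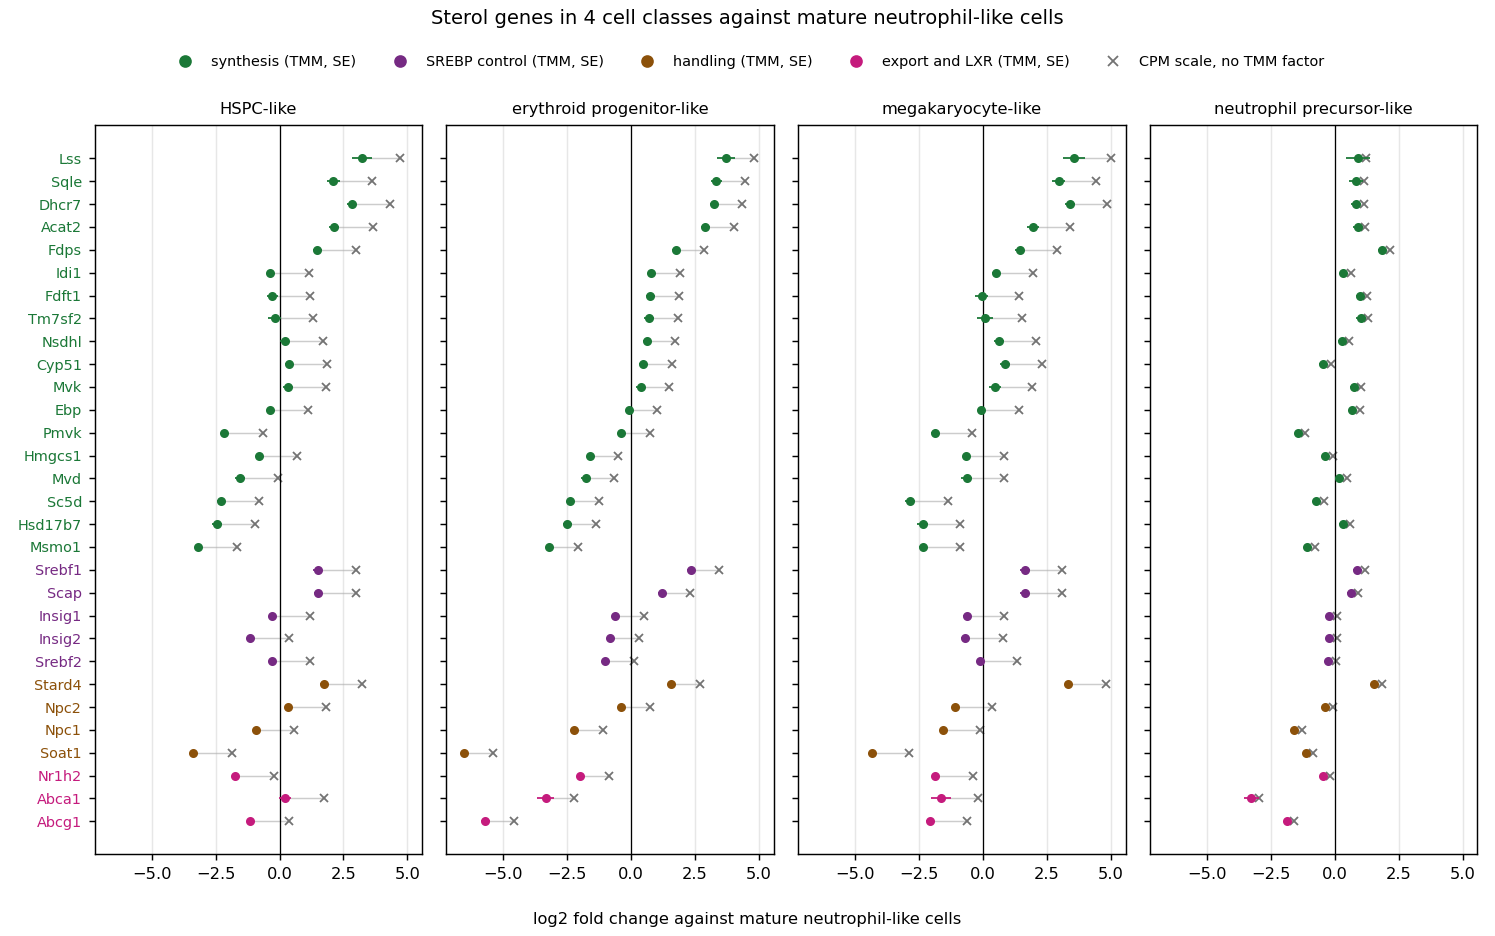
Log2 fold change of 30 genes in 4 cell classes against mature neutrophil-like cells. Coloured points with bars are edgeR estimates with TMM factors and their SE, and grey crosses are the same contrasts on the CPM scale, which lie further right in each panel. Lss, Sqle and Dhcr7 lie right of 0 in the first 3 panels on both scales, and Msmo1, Sc5d and Soat1 left of 0 in all 4.

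Dividing-cell genes and depth moved with these contrasts. The summed level of dividing-cell genes averaged 1847 CPM in HSPC-like, 4663 in erythroid progenitor-like, 2409 in megakaryocyte-like and 2250 CPM in neutrophil precursor-like cells, against 66.3 CPM in mature neutrophil-like cells. Median UMIs per cell ranged from 10711 to 34286 in the 4 classes, against 4106 to 5003 in mature neutrophil-like cells. Neutrophil RNA stood at 3525 to 18770 CPM in the HSPC-, erythroid progenitor- and megakaryocyte-like classes, against 385600 to 391900 CPM in mature neutrophil-like cells. The part of cell division and of neutrophil RNA in the contrasts was not tested. With each cell thinned to 2000 UMIs, Dhcr7 still differed by 3.52 in HSPC-like, Sqle by 2.72 in erythroid progenitor-like and Msmo1 by -2.93 in HSPC-like cells, while Lss was too low to be tested. Without WT replicate 1, the library that stood apart, Lss differed by 3.93 and Soat1 by -6.66 in erythroid progenitor-like cells.

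Along the neutrophil lineage, from GMP-like through precursor-like to mature cells, the members parted in the same 2 directions on the CPM scale. The step from GMP-like cells was not compared between scalings. Fdps averaged 121 ± 6.79, 26.1 ± 3.97 and 5.83 ± 2.54 CPM (n = 4 libraries) in that order, with no overlap between stages. Msmo1 ran the other way, at 10.6 ± 1.99, 21 ± 2.3 and 35.8 ± 5.78 CPM, again with no overlap. Abcg1 averaged 6.85 ± 1.35, 10 ± 0.857 and 30 ± 3.27 CPM. Hsd17b7, a sterol ketone reductase, was highest in the middle, at 2.95 ± 0.748, 12.5 ± 2.56 and 8.33 ± 3.22 CPM, and its precursor and mature libraries overlapped.

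Within mature neutrophil-like cells the pump level differed between clusters, of which only those led by Il1b and by Mmp8 are described here. Median UMIs per cell were 2770 in the Il1b cluster and 7711 in the Mmp8 cluster, and the part of depth was not tested. In the cluster led by Il1b, Ifitm1 and Wfdc17, Abca1 and Abcg1 together had 73 and 84.7 CPM in the YAP1 heterozygote libraries and 83.4 and 71.2 CPM in the WT libraries. In the cluster led by Mmp8 and Mmp9 they had 15.5 and 18.6 CPM in the YAP1 heterozygote libraries and 13.2 and 13.6 CPM in the WT libraries. Msmo1 was arranged in reverse, with means of 18.4 CPM in the Il1b cluster and 40.6 CPM in the Mmp8 cluster, and Sc5d followed the pumps, with 41.6 and 12.3 CPM. The Mmp8 cluster was also led by Ltf, a marker used here for neutrophil precursor-like cells. Clusters were formed from the same cells, so these levels are a description.

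**Figure D4:**
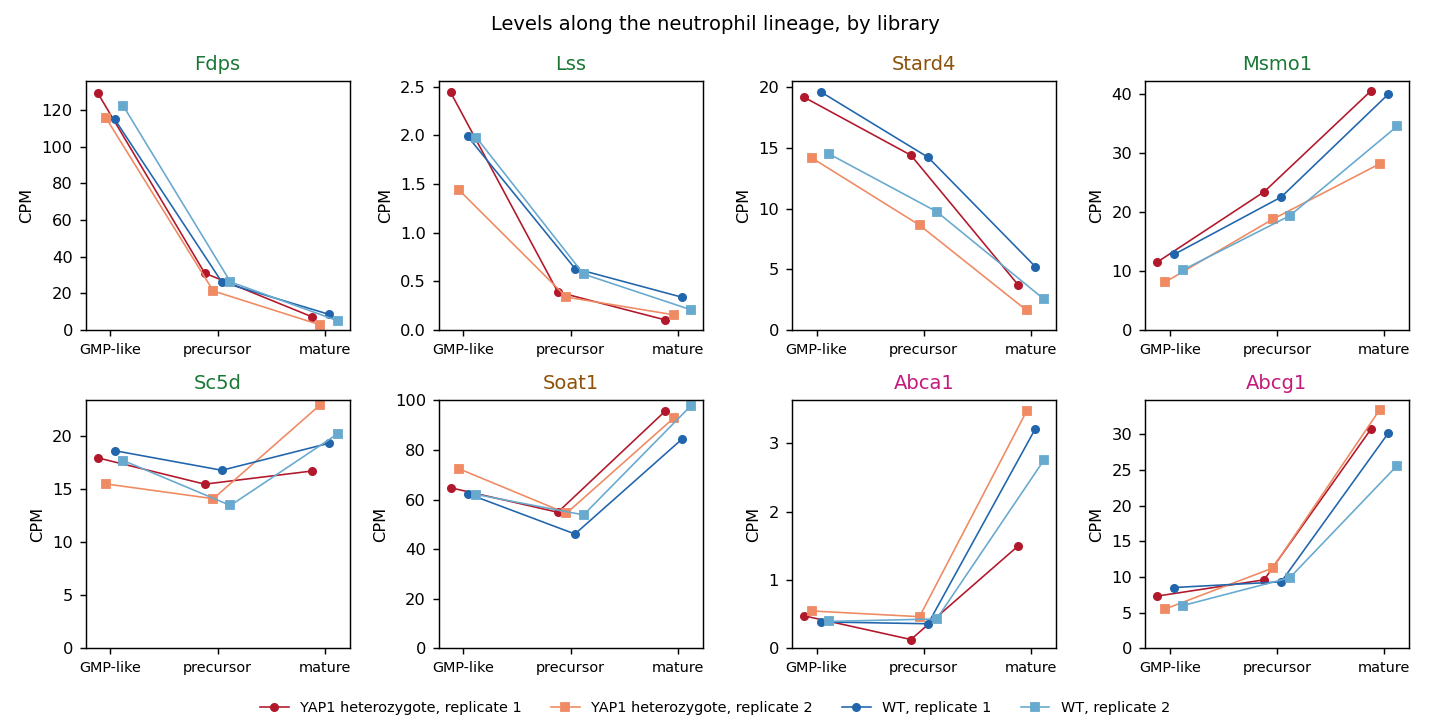
Level in CPM of 8 genes in GMP-like, neutrophil precursor-like and mature neutrophil-like cells, 1 line per library. On this scale Fdps, Lss and Stard4 are lowest in mature cells in all 4 libraries, and Msmo1, Soat1, Abca1 and Abcg1 are highest there. The difference of Lss between precursor-like and mature cells was not called under all 3 scalings.

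Related genes also took both directions. Of 44 other genes of synthesis, SREBP processing, uptake, LXR action and fatty acid synthesis that were tested, 17 were higher and 8 lower in HSPC-like cells than in mature neutrophil-like cells under all 3 scalings, or 38.6% and 18.2%, against 47.6% and 17.9% of all genes. In erythroid progenitor-like cells 20 were higher and 12 lower (45.5% and 27.3%, against 42.4% and 27.5%). In megakaryocyte-like cells 16 were higher and 11 lower (36.4% and 25%, against 45.4% and 19.4%), and in neutrophil precursor-like cells 11 and 13 (25% and 29.5%, against 32.5% and 24.9%). Shares called higher thus lay below those of all genes in 3 of the 4 contrasts, a difference that was not tested. The fatty acid synthase Fasn was among the higher genes and Abca7, a relative of Abca1, among the lower genes in all 4; both were picked out after their values were seen.

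As a description over the 68 sums of 17 classes and 4 libraries, the mean profile of the 7 synthesis genes with at least 4 log2 CPM was most like those of Trappc5 (Pearson r = 0.741), Smim5 (0.728), Bloc1s2 (0.711) and Phkb (0.703) among 7017 genes. The profile of Abca1 and Abcg1 was most like those of Tgfbr2 (0.894), Rhoq (0.862), Maf (0.856), Camk2d (0.844) and Lmbrd1 (0.843). The sums of a class share cells' depth, and the log2 of the median UMIs per cell ran against the pump profile (r = -0.817) and hardly with the synthesis profile (0.086).

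Between genotypes none of the 31 genes was called in any class in the main fits. These used all libraries, the filter on low counts and no replicate term. Other settings, some of which gave calls, are described in the closing section. Of 415 fits of a member in a class, 0 passed edgeR's quasi-likelihood test at an adjusted p of 0.05 and 14 had an unadjusted p under 0.05, against 4.64% of all fits. Over all genes and classes 75 of 153927 fits were called, or 0.0487%. Members that passed the filter on low counts numbered 29 in HSPC-like, 29 in erythroid progenitor-like, 28 in megakaryocyte-like, 29 in neutrophil precursor-like and 29 in mature neutrophil-like cells. Genotype effects in the first 4 classes were also compared with that in mature neutrophil-like cells, and 0 of 124 member fits were called. Of all genes 0.00742%, 0.0148%, 0.0371% and 0% were called in these comparisons for HSPC-, erythroid progenitor-, megakaryocyte- and neutrophil precursor-like cells. Of the related pathway genes none was called in any class.

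Insig1, which retains SREBP in the endoplasmic reticulum and is itself an SREBP target, had the lowest p of the 31 genes. In B cell precursor-like cells it had 29.2 and 22.5 CPM in the YAP1 heterozygote libraries, against 55.3 and 32.4 CPM in the WT libraries, and the groups did not overlap, as was so in this direction for 15.6% of all genes there (log2 fold change -0.77 ± 0.21, edgeR unadjusted p = 0.00232, adjusted p = 0.388). In HSPC-like cells it had 17.7 and 8.85 CPM in the YAP1 heterozygote libraries, against 30.1 and 17.4 CPM in the WT libraries (log2 fold change -0.85 ± 0.30, adjusted p = 0.917), and these groups overlapped. In mature neutrophil-like cells it had 6.92 and 4.77 CPM in the YAP1 heterozygote libraries, against 13.3 and 7.37 CPM in the WT libraries, without overlap, as for 18.9% of all genes there in this direction (log2 fold change -0.78 ± 0.27, adjusted p = 0.826).

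The fitted sign of Insig1 was negative in all 15 classes where it was tested, with a median of -0.38, and 16 of the 1624 genes tested in as many classes (0.985%) were negative in all of theirs. Insig1 was singled out for its low p in these same data, so this share is a description and no test. Between libraries of the same replicate number, Insig1 was lower in YAP1 heterozygotes in 14 of the 15 classes for replicate 1 and in 11 for replicate 2. The classes share the same 4 libraries and are not independent. WT replicate 1 had the highest Insig1 level of the 4 libraries in each of the 5 main classes, and without it the log2 fold change was -0.41 in HSPC-like, -0.36 in mature neutrophil-like, -0.25 in megakaryocyte-like and -0.08 in neutrophil precursor-like cells, against -0.85, -0.78, -0.49 and -0.38 with it. Without WT replicate 2 the log2 fold change was -1.16 in HSPC-like and -1.09 in mature neutrophil-like cells, without YAP1 heterozygote replicate 1 it was -1.44 in HSPC-like cells, and without YAP1 heterozygote replicate 2 it was -0.47 there. Each of these fits leaves 1 library in a genotype, which is assumed to vary like the 2 of the other. The adjusted p of Insig1 was below 0.05 in 6 classes without WT replicate 2 and in 3 without YAP1 heterozygote replicate 1, and calls over all genes and classes then numbered 3488 and 933, against 75 with all libraries. The size of its difference moved with the libraries used.

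Other members with low p in the main classes had uncertain differences, none of them called. In HSPC-like cells Idi1, the isopentenyl diphosphate isomerase, had 20.3 and 13 CPM in the YAP1 heterozygote libraries, against 24.3 and 24.5 CPM in the WT libraries (log2 fold change -0.55 ± 0.21, adjusted p = 1). Its groups did not overlap, as for 13.2% of all genes there in this direction. Abca1 in the same cells had 11.2 and 10.5 CPM in the YAP1 heterozygote libraries, against 7.35 and 6.78 CPM in the WT libraries (0.60 ± 0.26, adjusted p = 1). In mature neutrophil-like cells Hsd17b7 had 8.32 and 4.66 CPM in the YAP1 heterozygote libraries, against 12.5 and 7.84 CPM in the WT libraries (-0.61 ± 0.28, adjusted p = 0.942), and these groups overlapped. Insig2 in neutrophil precursor-like cells had 9.65 and 8.14 CPM in the YAP1 heterozygote libraries, against 6.13 and 8.51 CPM in the WT libraries (0.30 ± 0.18). In erythroid progenitor-like cells Soat1 differed by -0.72 ± 0.38 on 13 to 35 UMIs a library and Mvd by 0.62 ± 0.36 on 6 to 32 UMIs, and in megakaryocyte-like cells Srebf1 differed by -0.40 ± 0.27.

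By role, the median log2 fold change of the synthesis genes that passed the filter was -0.18 in HSPC-like, 0.10 in erythroid progenitor-like, -0.05 in megakaryocyte-like, -0.04 in neutrophil precursor-like and -0.21 in mature neutrophil-like cells, while that of all genes lay between -0.00451 and 0.00629 in these classes. On leaving out a library it ranged from -0.501 to 0.0133 in HSPC-like, -0.0102 to 0.262 in erythroid progenitor-like, -0.36 to 0.24 in megakaryocyte-like, -0.33 to 0.13 in neutrophil precursor-like and -0.70 to 0.12 in mature neutrophil-like cells, so its sign turned in all 5. Replicates also differed in these genes. The synthesis sum of replicate 1 exceeded that of replicate 2 in 15 of 17 classes among the YAP1 heterozygote libraries and in 12 of 17 among the WT libraries. In megakaryocyte-like cells it was 393 and 288 CPM in the YAP1 heterozygote libraries and 360 and 320 CPM in the WT libraries, and in mature neutrophil-like cells 183 and 129 CPM against 194 and 164 CPM.

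**Figure D5:**
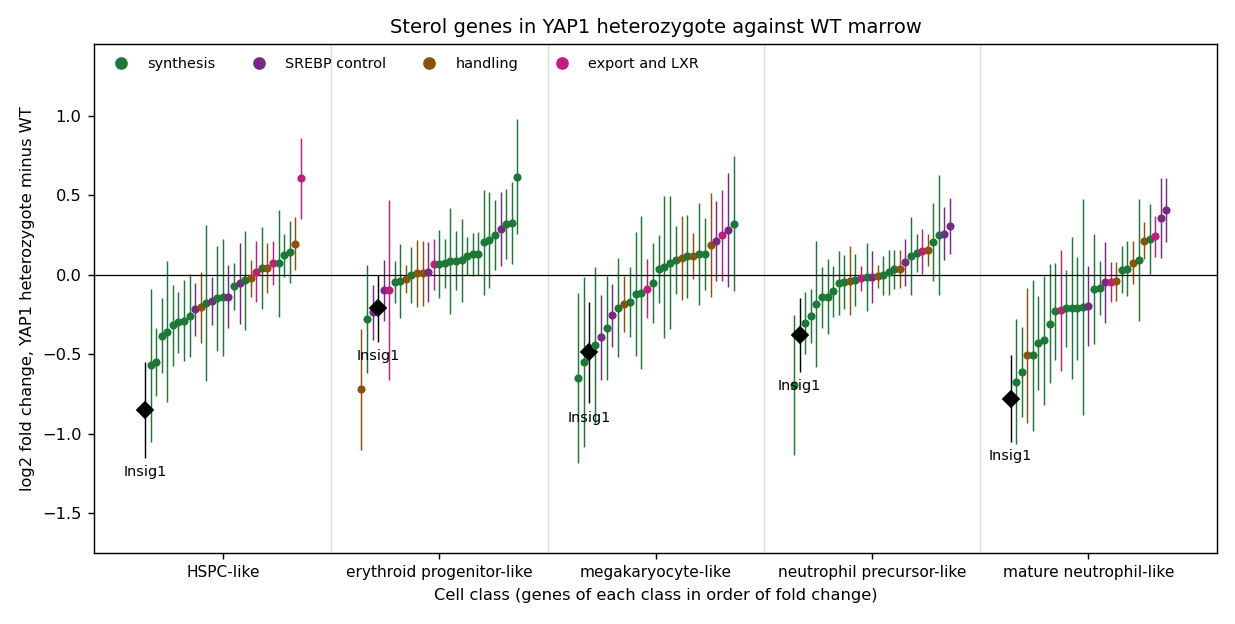
Log2 fold change, YAP1 heterozygote minus WT, with its SE, of the members that passed the filter in 5 cell classes, in order of size within each class and coloured by role. The black diamonds mark Insig1, which lies below 0 in all 5 classes. No point passed the adjusted threshold.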

How the data were processed

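The authors deposited raw UMI counts per gene and barcode for each library. Per the file headers, Cell Ranger 5.0.0 made them; per the submitters' processing notes, Cell Ranger 3.0.0 and Seurat 4.3.0 were used with GRCm38/mm10. The strand setting of the counting is not given in the sources used here. Whether reads of genes that overlap on opposite strands (Fdft1 with Ctsb, Cyp51 with Akap9, Srebf1 with Rai1, and others) were counted apart is therefore not known. Tm7sf2 overlaps Vps51 on the same strand, where the strand does not part their reads, and Acat2 is uncertain beside its close copy Acat3. A barcode was kept from 500 UMIs and 200 genes upward if mitochondrial genes held no more than 10% of its UMIs, and Scrublet doublets (3.38% to 4.40%) were removed. In scanpy 1.11.5, 2000 variable genes, without the 31 genes, gave 30 components, 15 neighbours and Leiden clusters at resolution 1.0, with no integration, named from marker lists. Sums of UMIs over the cells of a class in a library went into edgeR 4.0.16 (quasi-likelihood, filterByExpr, TMM, Benjamini-Hochberg over all genes of a fit): genotype class by class, where all libraries had 20 or more cells of it, and classes in 1 fit with library as a term. DESeq2 1.42.0 and the other settings of the closing section were alternatives. On simulated counts the genotype test recovered 70.4% of 2-fold changes in HSPC-like cells (11016 genes) and 59.8% in mature neutrophil-like cells (10261 genes). Values of every library are given for the 2 members with the lowest genotype p in each main class and for the members with the largest class contrasts (3 synthesis genes, 1 of each other role), and the 5 genes most alike in profile are named; 1 of these is not reported here. The members, lists and tests were chosen with earlier results of these data known. Intervals and errors cover the libraries sampled and counting error only.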

Additional observations from a re-analysis of the deposited data

How the results depend on the processing

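The count of members called between genotypes was 0 with RLE factors, DESeq2, doublets kept, a mitochondrial limit of 5% and Leiden resolutions 0.5 and 2.0; it was 2 without the filter on low counts and 0 to 15 on leaving out a library (15 without WT replicate 2, 3 without YAP1 heterozygote replicate 1). All genes called over all classes then numbered 3488 and 933, 1537 without the filter and 1594 with the block, against 75. The replicate numbers are the only pairing in the labels; same-numbered libraries deviated together with r between 0.063 and 0.478 in 17 classes, and with the replicate as a block 3 calls were made (Insig1 in B cell precursor-like and mature neutrophil-like cells, edgeR adjusted p = 0.0082 and 0.00216, and Hsd17b7 in mature neutrophil-like cells, adjusted p = 0.0177). The median genotype log2 fold change of synthesis genes in HSPC-like cells was -0.21 with DESeq2, -0.17 without the filter, -0.20 with doublets, -0.15 at 5%, -0.23 at resolution 2.0 and -0.23 with the block. On leaving out a library it ranged from -0.501 to 0.0133 there, -0.36 to 0.24 in megakaryocyte-like, -0.33 to 0.13 in neutrophil precursor-like and -0.70 to 0.12 in mature neutrophil-like cells. Against mature neutrophil-like cells, synthesis genes called higher numbered 13 in HSPC-like (TMM 6) and 14 in megakaryocyte-like cells (TMM 8) on the CPM scale, an alternative chosen after seeing the data; called lower were 4 in HSPC-like (TMM 8) and 3 in neutrophil precursor-like cells (TMM 5), and export genes called lower 1 in HSPC-like (TMM 2). With cells thinned to 2000 UMIs fewer genes were tested: 6 were higher in erythroid progenitor-like, 4 in megakaryocyte-like and 6 in neutrophil precursor-like cells, and 5 lower in HSPC-like and 3 in neutrophil precursor-like cells; doublets kept also gave 3 there. Except for the thinning, the cause was not tested. Named class contrasts kept direction and call under every alternative that gave a value; resolution 0.5 gave none for HSPC-like cells. Lss, Abca1 and Nr1h3 are limited by depth in neutrophils.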
